A study of Mus musculus with 3 samples.

Results

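The array carried 2 probes for miR-21a, one for each arm of its hairpin, among 1265 mouse miRNA probes. They were found by name, as every probe whose name begins with mmu-miR-21a-, and are mmu-miR-21a-5p and mmu-miR-21a-3p, written below without the mouse prefix. The rule uses the name only, but miR-21a was chosen by a reading of these same arrays in which brightness and ratios were known, so the values below are a description and carry no test. Total RNA was hybridized to Toray 3D-Gene mouse miRNA arrays, 1 array for each of 3 conditions. W4-08-PR was the Wnt4-over-expressing line W4-08, made by stable transfection of C2C12 with a V5-tagged Wnt4 under a CMV promoter and selected in blasticidin, grown in proliferation medium with 10% fetal bovine serum. C2C12-DF was the parental line in differentiation medium with 2% horse serum, and C2C12-PR was the parental line in the same proliferation medium as W4-08-PR. C2C12 is a myoblast-like line from the C3H mouse, and all 3 conditions share that origin and DMEM as base medium. The serum differed in both kind and amount between C2C12-DF and C2C12-PR, and the effects of either cannot be told apart. With 1 array per condition, the spread between cultures could not be measured, and an array could not be told apart from its condition. An error given below is a technical SD, built from the spread of blank spots and of repeated spike control spots on the arrays. The spike spots were far brighter than miR-21a-5p, so spot noise at its brightness was not measured directly. A difference larger than this SD exceeds that estimate of spot noise only.

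MicroRNAs are short RNAs that guide Argonaute proteins to messenger RNAs, mostly by pairing of the seed near their 5′ end, and lower the output of those messengers. A hairpin precursor yields an arm from each side, and usually one arm is kept while the other is degraded. miR-21 is among the best known growth-linked miRNAs. It is high in many tumours, its known targets include the growth restrainer Pdcd4, and its 5p arm is the one that is usually kept. When myoblasts are moved to medium poor in serum they leave the cell cycle and fuse into myotubes, with a rise of miR-206, miR-133 and miR-1.

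The mature sequences are shown because they set which other miRNAs a miR-21a probe might also bind. Both arms, and the 2 mouse miRNAs named as relatives of miR-21a, follow 5′ to 3′ with the seed (bases 2 to 8) in capitals.
miR-21a-5p: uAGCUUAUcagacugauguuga
miR-21a-3p: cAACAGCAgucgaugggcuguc
miR-21b: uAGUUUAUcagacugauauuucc
miR-21c: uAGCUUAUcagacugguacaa
The sequences and positions are from RefSeq, build GRCm38.p6. The miR-21a-5p sequence lies at chr11:86584120-86584141 and the miR-21a-3p sequence at chr11:86584082-86584103, both on the minus strand and within the span of the Vmp1 gene. Among 1738 mature mouse miRNAs in the RefSeq table, the miR-21a-5p seed was found in 2, which are miR-21a-5p and miR-21c. miR-590-5p, which has a probe on the array, was missing from that table, so the search could not have found it. The seeds of miR-21a-3p and of miR-21b were each found in 1. Counted from the 5′ end, miR-21b differs from miR-21a-5p within the seed by C4U, and miR-21c shares the first 15 bases with miR-21a-5p and first differs by A16G.

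miR-21a-5p was bright on every array, and about as bright on W4-08-PR as on C2C12-PR. Its spot read 894 arbitrary units on W4-08-PR, 475 on C2C12-DF and 922 on C2C12-PR, with no correction. The background, taken as a 5% trimmed mean over blank spots, was 99.9, 101 and 95.9 units in the same order of arrays. Less the background, the signal was 794 ± 54.2 units on W4-08-PR, 374 ± 37.0 on C2C12-DF and 826 ± 66.4 on C2C12-PR (technical SD, 1 array each). C2C12-DF was the low array of the set, and the ranges of 1 technical SD on W4-08-PR and C2C12-PR overlapped. The signal stood 124 blank-spot SDs above the background on W4-08-PR, 54.8 on C2C12-DF and 109 on C2C12-PR. None of the 1664 blank spots of any array was brighter, so the level of miR-21a-5p was far from the detection limit in all 3 conditions.

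The other arm was not seen. The miR-21a-3p spot read 101.0 units on W4-08-PR, 101.4 on C2C12-DF and 98.8 on C2C12-PR, and it had no value above the authors' detection limit on any array. Among the blank spots, 42.4% on W4-08-PR, 46.0% on C2C12-DF and 33.1% on C2C12-PR were brighter than it. The miR-21a-3p spot was thus inside the blank spots on each array, and no ratio between conditions was formed for it. The lowest detected signal was 9.77 units on W4-08-PR, 10.8 on C2C12-DF and 11.9 on C2C12-PR, which bounds what this probe could have shown. The ratio of the 2 arms was not computed, because probes differ in how well they bind.

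The related probes were also undetected on all 3 arrays. The miR-21b spot read 95.3 units on W4-08-PR, 90.2 on C2C12-DF and 99.2 on C2C12-PR. The miR-21c spot read 100.2 units on W4-08-PR, 102 on C2C12-DF and 94.4 on C2C12-PR. The miR-590-5p spot, which in human shares the miR-21 seed family, read 96.1 units on W4-08-PR, 100.1 on C2C12-DF and 87.5 on C2C12-PR. Of the blank spots, between 31.8% and 94.4% were brighter than these 3 probes, depending on probe and array. The probe of miR-21c, whose target shares the seed and the first 15 bases with miR-21a-5p, therefore gave no signal on arrays where miR-21a-5p was bright.

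**Figure D1:**
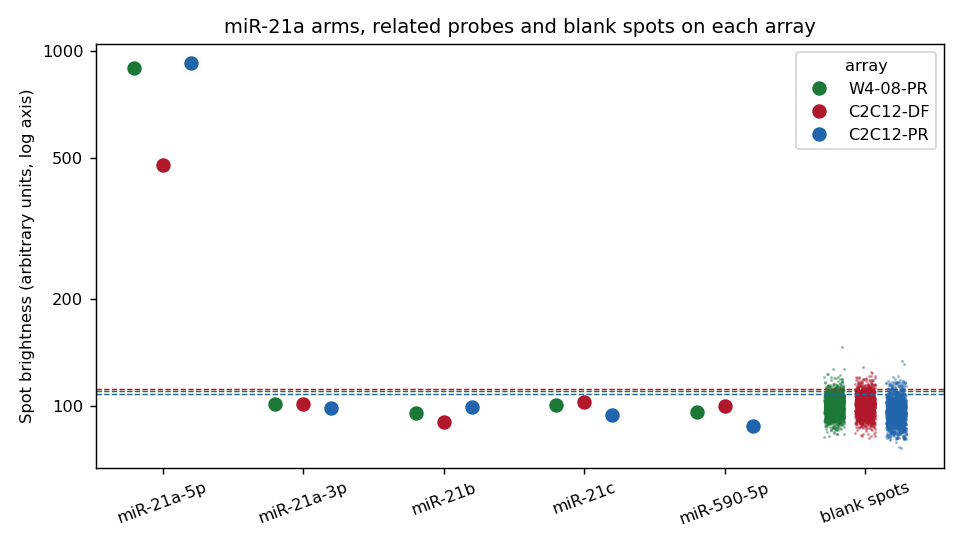
Uncorrected spot brightness (arbitrary units, log axis) of both miR-21a arms, of miR-21b, miR-21c and miR-590-5p, and of all blank spots on W4-08-PR, C2C12-DF and C2C12-PR, with the detection limit of each array as a dashed line. miR-21a-5p reads 894, 475 and 922 units, and the other 4 probes lie among the blank spots.

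The place of miR-21a-5p among the probes of its own array needs no scaling between arrays. Ranked by brightness, it was 32nd of 1265 probes on W4-08-PR, 49th on C2C12-DF and 28th on C2C12-PR. Moved by 1 technical SD in either direction, the rank ran between 30 and 35 on W4-08-PR, between 47 and 52 on C2C12-DF and between 28 and 30 on C2C12-PR. The ranks on C2C12-DF were thus outside those of the other arrays, while the ranges on W4-08-PR and C2C12-PR met at 30. A rank of brightness is not a rank of abundance, since probes bind with different strength.

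The detected probes numbered 477 on W4-08-PR, 370 on C2C12-DF and 339 on C2C12-PR. Of the blank spots, 6.85%, 6.01% and 7.15% in the same order reached the lowest detected signal, so a probe near it may pass without its target. Of the summed signal of the detected probes, miR-21a-5p held 0.679% ± 0.0463 on W4-08-PR, 0.417% ± 0.0412 on C2C12-DF and 0.668% ± 0.0537 on C2C12-PR (technical SD). Over the 277 probes detected on all 3 arrays, its share was 0.698%, 0.424% and 0.674% in the same order of arrays. The share was lowest on C2C12-DF either way, and W4-08-PR and C2C12-PR lay within 1 technical SD of each other.

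The change of order was also counted probe by probe. Of the 27 probes brighter than miR-21a-5p on C2C12-PR, 26 were also brighter than it on C2C12-DF. A further 22 probes that were dimmer than it on C2C12-PR were brighter on C2C12-DF. The exception was miR-6412, one of the miRNAs the study went on to examine by mimic transfection, which fell behind miR-21a-5p on C2C12-DF. The lower rank on C2C12-DF thus came with many probes passing miR-21a-5p and 1 falling behind it.

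Between W4-08-PR and C2C12-PR few probes changed side. Those that passed miR-21a-5p on W4-08-PR were 6 in number: let-7f-5p, miR-16-5p, miR-22-3p, miR-3960 and the muscle-enriched miR-206-3p and miR-133b-3p. Those that fell behind it were 2, miR-31-5p and miR-6412. Between W4-08-PR and C2C12-DF, miR-206-3p and miR-133b-3p passed it on W4-08-PR and 19 probes fell behind it.

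**Figure D2:**
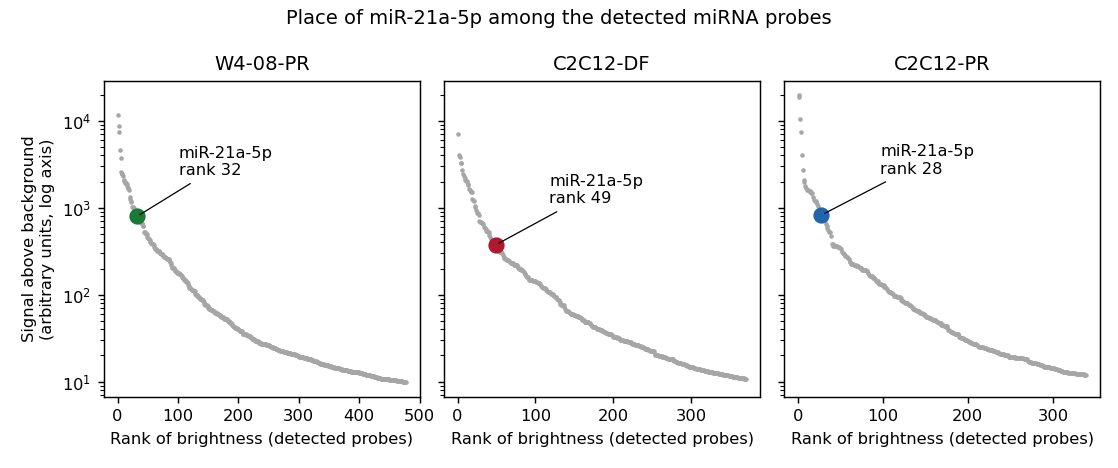
Signal above background (arbitrary units, log axis) of every detected miRNA probe against its rank of brightness on W4-08-PR, C2C12-DF and C2C12-PR, with miR-21a-5p as the large point. Its rank is 32 on W4-08-PR, 49 on C2C12-DF and 28 on C2C12-PR.

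The probes next to it in brightness did not share a common ratio. On W4-08-PR these were miR-3960 and miR-22-3p above and miR-711 and miR-375-5p below. On C2C12-DF they were miR-27a-3p and miR-149-3p above and miR-145a-5p and miR-494-3p below, and on C2C12-PR miR-24-3p and miR-6240 above and miR-221-3p and miR-3960 below. Their log2 ratios of C2C12-DF over C2C12-PR ran between -0.59 for miR-27a-3p and 1.11 for miR-145a-5p. All of these neighbours had a higher ratio in that comparison than miR-21a-5p.

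For ratios between arrays, the signals were background-corrected, quantile-normalized over the miRNA probes and set on a log2 scale. A probe was called higher or lower where its ratio was at least 2-fold and it was detected on the brighter array. miR-21a-5p had a normalized log2 value of 8.85 on C2C12-DF, against 9.80 on C2C12-PR. The log2 ratio of C2C12-DF over C2C12-PR was -0.95 ± 0.16 (technical SD), which put the level on C2C12-DF at 0.518 of that on C2C12-PR, with a range of 0.462 to 0.58 at 1 technical SD. It missed the 2-fold limit narrowly. In that comparison 16 of 424 probes, or 3.77%, were called lower and 3 of 424, or 0.708%, were called higher.

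Among the 285 probes detected on both of these arrays, miR-21a-5p had the 16th lowest ratio, and 269 probes were higher. Over the 277 probes detected throughout, the log2 ratio had a median of 0.05. With quantile normalization, miR-3072-3p at -1.01 and miR-3968 at -1.03 stood just inside the limit, and just outside it, after miR-21a-5p, miR-106a-5p at -0.94 and miR-29b-3p at -0.78. miR-6412 had the lowest ratio (-2.95), followed by miR-3963 (-2.05) and miR-5097 (-1.97). The order of the bright probes depended on the scaling: miR-3968 was at -2.50 with no scaling, where it was the 3rd lowest and miR-3963 the 4th.

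miR-21a-5p had a normalized log2 value of 9.62 on W4-08-PR, against 9.80 on C2C12-PR. The log2 ratio was -0.18 ± 0.18, a level of 0.882 with a range of 0.777 to 1.002 at 1 technical SD. The difference was no larger than the technical SD. In this comparison 3 of 514 probes (0.584%) were called higher and 9 of 514 (1.75%) were called lower. miR-21a-5p was the 77th lowest of 302 probes detected on both arrays, and between the 63rd and the 120th lowest over the settings below.

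With C2C12-DF as the base, miR-21a-5p had a normalized log2 value of 9.62 on W4-08-PR and 8.85 on C2C12-DF. It was 1.70-fold higher on W4-08-PR, a log2 ratio of 0.77 ± 0.18 and a range of 1.5-fold to 1.93-fold at 1 technical SD. It was not called at the 2-fold limit, at which 6 of 524 probes (1.15%) were called higher and another 6 (1.15%) lower. Of the 323 probes detected on both arrays, 12 had a higher ratio, and over the settings below between 12 and 36 did. The 3 comparisons share arrays, so this ratio is fixed by the other two and adds no separate evidence.

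The ratios were recomputed under 11 alternative scalings and background corrections, giving 12 settings with the one above. The log2 ratio of C2C12-DF over C2C12-PR was below 0 in 12 of 12 settings, between -1.16 and -0.94. That is a level of 0.448 to 0.522, and the call of lower was made in 9 of the 12. It was not made with quantile normalization over all miRNA probes or over the probes detected on all 3 arrays, or in the authors' processed values. The rank of the ratio ran between the 16th and the 22nd lowest, and the ratio less the median of those 277 probes was between -1.35 and -0.99 on the log2 scale. Where the call was made, the background of probes called lower was 4.01% with median or no scaling, 4.25% with 75th percentile or spike control scaling, 5.42% with an offset of 10 and 8.49% with plain subtraction. It was 7.55% for plain subtraction with no or median scaling and 7.78% for plain subtraction with spike control scaling. The direction was therefore the same under each scaling, and the call depended on the setting.

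The comparison of W4-08-PR with C2C12-PR depended on the scaling for its sign. The log2 ratio was below 0 in 11 of 12 settings, the lowest -0.46, and was 0.65 in the authors' processed values. No setting called it. The authors' processed value of miR-21a-5p was 726 on W4-08-PR and 464 on C2C12-PR, with 242 on C2C12-DF. These values are the signal times a factor of 0.914 for W4-08-PR, 0.647 for C2C12-DF and 0.561 for C2C12-PR. The factors alone add 0.70 to every log2 ratio of W4-08-PR over C2C12-PR, and in those values the 277 probes detected throughout had a median of 1.05. Against the median of the same 277 probes, miR-21a-5p was lower in 12 of 12 settings. The difference was between -0.40 and -0.13 on the log2 scale. A factor per array shifts miR-21a-5p and the median equally. Settings that differ only by such a factor therefore repeat the same difference and do not count separately. This holds for the difference from the median in each comparison.

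W4-08-PR exceeded C2C12-DF in 12 of 12 settings. The log2 ratio ran between 0.65 and 1.58, and the call of higher was made in 3, which were the authors' processed values and plain subtraction with no scaling or with spike control scaling. Relative to the median of those 277 probes the ratio was 0.77 to 0.94 higher on the log2 scale. The background of probes called higher was 32.2% in the authors' processed values, and 11.5% and 10.1% for plain subtraction with no and with spike control scaling.

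**Figure D3:**
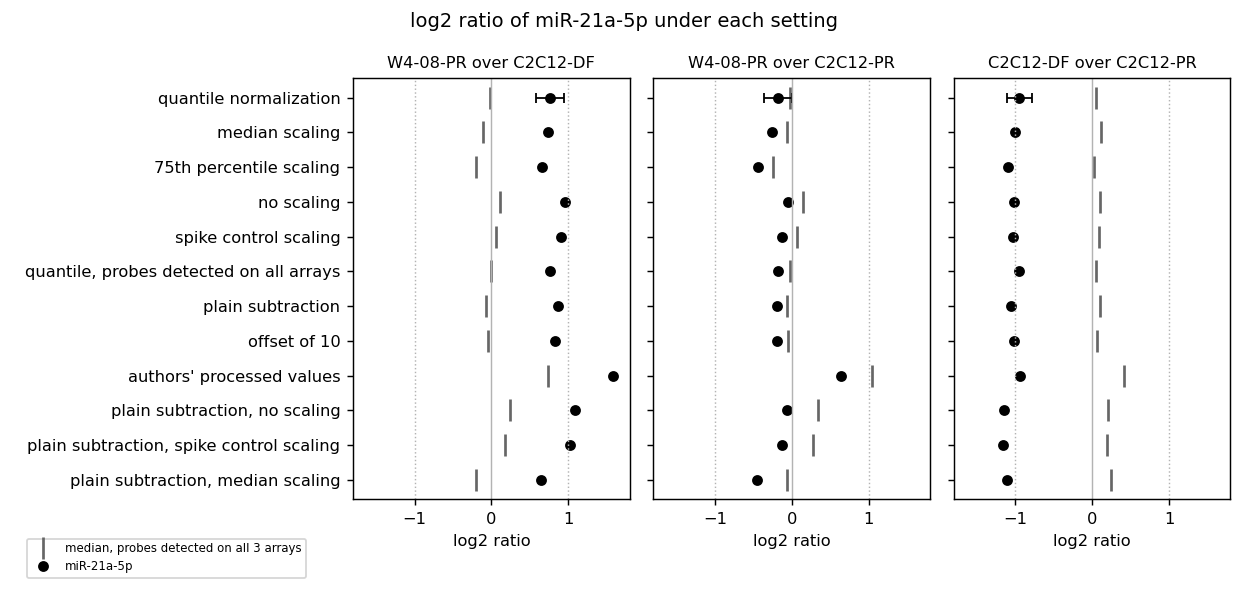
The log2 ratio of miR-21a-5p (points) and the median of the probes detected on all 3 arrays (grey ticks) under 12 settings, for W4-08-PR over C2C12-DF, W4-08-PR over C2C12-PR and C2C12-DF over C2C12-PR, with the 1 technical SD as a bar for quantile normalization and the 2-fold limits dotted. C2C12-DF over C2C12-PR stays between -1.16 and -0.94, and W4-08-PR over C2C12-PR crosses 0 in the authors' processed values alone.

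Growth-linked miRNAs were listed as a group to set beside miR-21a-5p: members of the miR-17-92 cluster and its paralogs, miR-221-3p, miR-222-3p and miR-155-5p. The cluster is a known MYC target in mammalian cells and promotes cell division, and miR-221 and miR-222 are known to lower the cell cycle inhibitor p27. On C2C12-DF against C2C12-PR, 11 of the 12 were detected on both arrays, 3 were called lower and none higher, against 3.77% and 0.708% of all probes. The called members were miR-19b-3p (-1.32 ± 0.17), miR-20a-5p (-1.30 ± 0.14) and miR-17-5p (-1.07 ± 0.23) on the log2 scale, and miR-17-5p was not called with median or no scaling. miR-17-5p and miR-20a-5p share a seed, and all 3 are of the miR-17-92 cluster and its paralogs, so they may not be separate members of this count. Of the same cluster and paralogs, miR-18a-5p (-0.27 ± 0.17) and miR-92a-3p (-0.34 ± 0.16) were among those not called. The median over the 11 was -0.30, against 0.04 over all 285 probes detected on both arrays, and was below 0 in 12 of 12 settings. With quantile normalization, the ratio of miR-21a-5p was lower than those of all but the 3 called members.

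miR-20a-5p and the miR-221 pair were low on different arrays. miR-20a-5p had a signal of 237 units on W4-08-PR, 64.6 on C2C12-DF and 225 on C2C12-PR, low on C2C12-DF alone as miR-21a-5p was. miR-18a-5p was also lowest on C2C12-DF, with 19.5 units on W4-08-PR, 16.3 on C2C12-DF and 30.0 on C2C12-PR. It stood near the detection limit, and its signal on W4-08-PR was close to that on C2C12-DF. Not every list member was lowest on C2C12-DF: miR-25-3p had 200 units on W4-08-PR, 135 on C2C12-DF and 102 on C2C12-PR. miR-221-3p had a signal of 371 units on W4-08-PR, 881 on C2C12-DF and 814 on C2C12-PR, low on W4-08-PR alone. miR-222-3p, encoded beside it, had a signal of 137 units on W4-08-PR, 425 on C2C12-DF and 364 on C2C12-PR. For W4-08-PR over C2C12-PR, the list had 2 members called lower, miR-222-3p (-1.5 ± 0.22) and miR-221-3p (-1.25 ± 0.15), and none higher, against 1.75% and 0.584% of all probes. The list median was -0.19 against -0.03 over all 302 probes detected on both arrays. That median was below 0 in 7 of 12 settings. In the authors' processed values it was 0.92, and 6 members were called higher there, as were 53.3% of the 302 probes, and neither miR-221-3p nor miR-222-3p was called lower. For W4-08-PR over C2C12-DF, miR-19b-3p was called higher (1.07 ± 0.14) and miR-221-3p and miR-222-3p lower, against 1.15% of all probes in each direction, and 8 of 11 members had a lower ratio than miR-21a-5p. Over the 12 settings the members called higher numbered between 0, with 75th percentile scaling, and 8, in the authors' processed values. Of all probes, 0.954% were called higher with 75th percentile scaling and 32.2% in the authors' processed values. In the authors' processed values miR-221-3p was no longer called lower.

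A list of 18 growth-restraining miRNAs, of the let-7, miR-15 and miR-16, miR-26, miR-29 and miR-34 families, was detected in full on all 3 arrays. None of the 18 was called on C2C12-DF against C2C12-PR, a count near the background of 3.77% lower and 0.708% higher, and the median was 0.00. The ratios ran between -0.78 for miR-29b-3p and 0.50 for let-7b-5p. With quantile normalization all 18 had a higher ratio than miR-21a-5p. In 6 of the 12 settings 1 of them, miR-29b-3p, was called lower and lay below miR-21a-5p. Between 5.42% and 8.49% of all probes were called lower in those settings, so 1 of 18 was near the background. With plain subtraction miR-29b-3p was at -1.74, against -1.06 for miR-21a-5p. With quantile normalization none was called for W4-08-PR over C2C12-PR (median 0.17) or W4-08-PR over C2C12-DF (median 0.15). In the last comparison all 18 then had a lower ratio than miR-21a-5p. With plain subtraction miR-29b-3p was called higher for W4-08-PR over C2C12-DF, at 1.25 against 0.87 for miR-21a-5p. In that setting 5.73% of all probes were called higher. In the authors' processed values 14 were called higher on W4-08-PR over C2C12-PR and 8 on W4-08-PR over C2C12-DF, where 53.3% and 32.2% of the probes detected on both arrays were. Their signals differed widely. let-7a-5p, a restrainer of Ras and Hmga2, had a signal of 2441 units on W4-08-PR, 2094 on C2C12-DF and 1465 on C2C12-PR, and miR-195a-5p, of the miR-15 family, had 30.3 units on W4-08-PR, 30.2 on C2C12-DF and 25.8 on C2C12-PR.

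The muscle-enriched miRNAs, which mark the state of the cells, moved in another order than miR-21a-5p. Their summed signal over detected probes was 3650 units on W4-08-PR, 395 on C2C12-DF and 119 on C2C12-PR. miR-206-3p, a miRNA of skeletal muscle that promotes differentiation, had a signal of 1917 units on W4-08-PR, 219 on C2C12-DF and 54.4 on C2C12-PR. Its log2 ratio of C2C12-DF over C2C12-PR was 1.26 ± 0.15, and it was the one list member called higher there, against 0.708% of all probes. In 5 of the 12 settings miR-133a-3p and miR-133b-3p were called higher too. Those settings were plain subtraction with each scaling and the authors' processed values, where between 6.6% and 14.7% of probes were called higher. The list median was 1.68 in the authors' processed values against 0.60 with quantile normalization. Over all probes detected on both arrays, the median was 0.40 and 0.04 in the same order. With quantile normalization, miR-206-3p, miR-133a-3p and miR-133b-3p were all called higher for W4-08-PR over both other arrays. Of all probes, 0.584% were called higher over C2C12-PR and 1.15% over C2C12-DF. miR-1a-3p was detected on W4-08-PR alone, and miR-499-5p and miR-208b-3p, both made from myosin genes, on no array. On W4-08-PR, where these miRNAs were highest, miR-21a-5p was within 1 technical SD of its signal on C2C12-PR, and on C2C12-DF, where they were intermediate, it was at its lowest. In bulk RNA, fewer cells carrying a miRNA and less of it per cell cannot be told apart.

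miRNAs of other cell types were few. Those of epithelium (0 of 5) and liver (0 of 1) were detected on no array. Of the blood list, 2 of 5 were detected on W4-08-PR, 1 on C2C12-DF and 2 on C2C12-PR, with summed signals of 23.4, 16.9 and 67.1 units in that order. Of the neural list, 1 of 3 was detected on W4-08-PR, 1 on C2C12-DF and 0 on C2C12-PR, and of the endothelial list, 1 of 2 was detected on W4-08-PR and 0 on the other arrays. The endothelial signal was 10.8 units, near the lowest detected signal of 9.77 units, which 6.85% of blank spots on W4-08-PR also reached. The smooth muscle pair miR-143-3p and miR-145a-5p summed to 622 units on W4-08-PR, 482 on C2C12-DF and 232 on C2C12-PR, an order that miR-21a-5p did not follow. The members differed, with 283, 116 and 111 units in that order for miR-143-3p and 339, 367 and 122 for miR-145a-5p. With quantile normalization miR-145a-5p was called higher on C2C12-DF over C2C12-PR (1.11), against 0.708% of all probes, and miR-143-3p was not (-0.13). The part of these miRNAs of other cell types in the levels of miR-21a-5p was not tested.

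**Figure D4:**
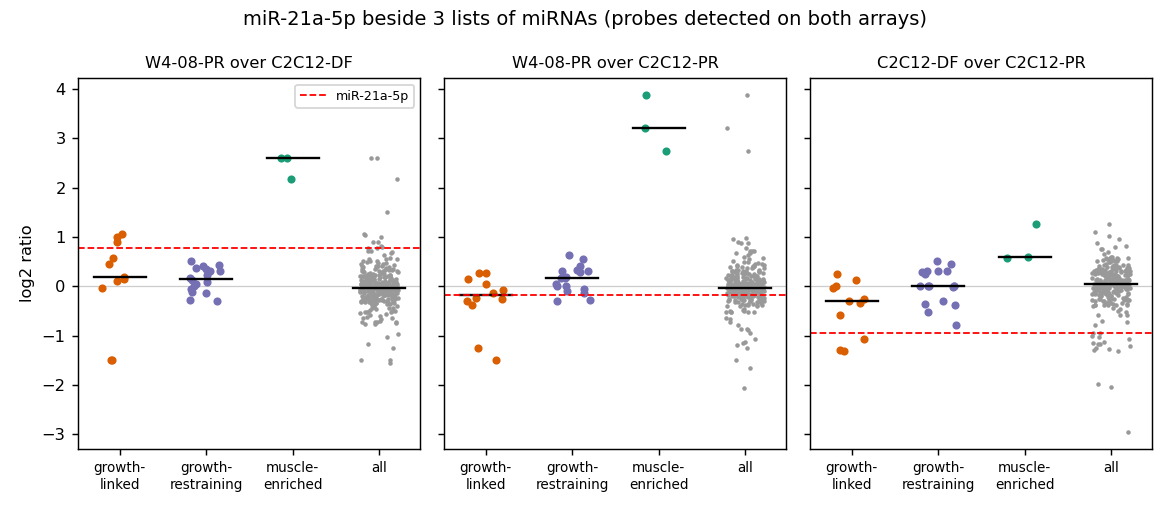
Log2 ratios of the growth-linked, growth-restraining and muscle-enriched miRNAs and of all miRNA probes detected on both arrays (points), with list medians as bars and miR-21a-5p as the dashed line, for W4-08-PR over C2C12-DF, W4-08-PR over C2C12-PR and C2C12-DF over C2C12-PR. For C2C12-DF over C2C12-PR, miR-21a-5p lies below all 18 growth-restraining members and above 3 of the 11 growth-linked ones.

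The probes whose pattern over the 3 arrays was most like that of miR-21a-5p were sought among the other 276 probes detected on all 3. Likeness was the Euclidean distance between log2 values after each probe's own mean was taken off. A pattern of 3 points is easily matched, and this is a description of 3 arrays. The nearest was miR-106a-5p at a distance of 0.009, against a median distance of 0.77 over all 276. The next were miR-17-5p (0.16), miR-20b-5p (0.17), miR-29b-3p (0.19) and miR-3968 (0.19).

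miR-106a-5p belongs to a paralog of the miR-17-92 cluster on the X chromosome. Its signal was 297 units on W4-08-PR, 111 on C2C12-DF and 239 on C2C12-PR. The log2 ratio of C2C12-DF over C2C12-PR was -0.94 ± 0.15 for miR-106a-5p and that of W4-08-PR over C2C12-PR was -0.17 ± 0.12. The second ratio turned with the scaling: it was below 0 in 6 of 12 settings and above 0 in 6, and with no scaling it was 0.25 for miR-106a-5p and -0.05 for miR-21a-5p. miR-106a-5p was among the 5 nearest in 12 of 12 settings and the nearest in 3 of them, while miR-20b-5p was the nearest in 4 and miR-3968 in 1. In the remaining settings the nearest was a probe not named here. miR-17-5p and miR-29b-3p were each among the 5 nearest in 3 settings, and miR-3968 in 4. A factor per array cancels in these distances. Settings that differ only by such a factor therefore repeat the same result and do not count separately.

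The leading neighbours are printed to show how alike they are, with the seed in capitals.
miR-106a-5p: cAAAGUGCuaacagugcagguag
miR-17-5p: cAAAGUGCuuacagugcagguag
miR-20b-5p: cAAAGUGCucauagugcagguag
They share one seed, and their other bases are so similar that a probe for one may bind another, so they may not be separate measurements. The seed differs from that of miR-21a-5p. miR-29b-3p, a member of the growth-restraining list, had a signal of 81.9 units on W4-08-PR, 29.3 on C2C12-DF and 83.5 on C2C12-PR. miR-3968 had a signal of 8645 units on W4-08-PR, 3292 on C2C12-DF and 18879 on C2C12-PR, and its log2 ratio of W4-08-PR over C2C12-PR was 0.00 after quantile normalization, which sets probes of equal rank to equal values.

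**Figure D5:**
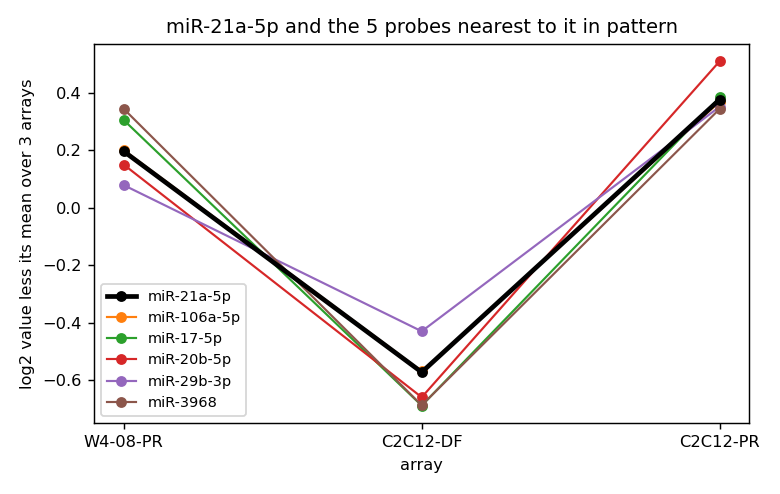
Normalized log2 value less the mean of each probe over the 3 arrays, for miR-21a-5p (thick black line) and the 5 probes nearest to it, on W4-08-PR, C2C12-DF and C2C12-PR. miR-106a-5p, at a distance of 0.009, lies under the line of miR-21a-5p, and all 6 probes are lowest on C2C12-DF.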

How the data were processed

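Total RNA of W4-08-PR, C2C12-DF and C2C12-PR cells was hybridized by the authors' array service, 1 Toray 3D-Gene array each. The deposited spot values are intensity, linear and uncorrected for background. The deposited processed values (signal) follow that intensity minus a trimmed blank-spot mean, times a factor per array that puts the detected median at 25. Probes with such a value were taken as detected. Scanner settings are not given in the sources used here. Background was corrected with normexp in limma 3.58.1 (R 4.3.3, offset 50), fitted on all spots, followed by quantile normalization over the 1265 miRNA probes and log2. Technical SDs combined the blank-spot SD (6.43, 6.83 and 7.59 units on W4-08-PR, C2C12-DF and C2C12-PR) and the CV of 16 spike control spots (6.77%, 9.71% and 7.99%). The median spike signal was 32659, 30574 and 30647 units in that order, and the CV was applied unchanged to dimmer probes. A call needed a log2 ratio of 1 in size and detection on the brighter array. No test was possible with 1 array per condition, and the number of arrays limits the precision. The background correction and scaling were run on simulated arrays in R. Recovery of known changes was required for no scaling and for spike control scaling, the latter also with plain subtraction, but not for quantile normalization. Ratios, ranks and lists were computed in Python 3.11.15 with numpy 2.4.6 and pandas 2.3.3. By plan, named miRNAs were both miR-21a arms, the listed miRNAs (up to 4 a list by size of ratio), the 2 neighbours in brightness on each side, and the 5 nearest patterns. Others were named outside that plan, such as further list members, probes that changed order and those with the lowest ratios. The members and lists were chosen with earlier results of these data known. The 3 settings that combine plain subtraction with no, spike control or median scaling were added after seeing the data.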

Additional observations from a re-analysis of the deposited data

How the results depend on the processing

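The rank of miR-21a-5p was also taken among detected probes only and in the authors' processed values. Neither run could change it, because leaving out dimmer probes or applying a factor per array keeps the order above miR-21a-5p. The unchanged ranks are therefore no check on the processing. The share of miR-21a-5p moved by less than the technical SD when the sum was limited to probes detected on all arrays. The log2 ratio of C2C12-DF over C2C12-PR kept its direction in all 11 alternatives and moved furthest with plain subtraction and no scaling (-1.14) or spike control scaling (-1.16). W4-08-PR over C2C12-PR moved to -0.44 with 75th percentile scaling, 0.65 in the authors' processed values and -0.46 with plain subtraction and median scaling. W4-08-PR over C2C12-DF moved to 0.96 with no scaling, 1.58 in the authors' processed values, and 1.08 and 1.03 with plain subtraction and no or spike control scaling. miR-21a-3p had no ratio under any setting. The depth of signal limits only this arm, and the cause of these shifts was not tested beyond the factors given above. No paired analysis was possible because each condition had 1 array, and no replicate could be left out.

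Counts of called probes moved more. Called higher on C2C12-DF over C2C12-PR (3) were 28 with plain subtraction, 6 with an offset of 10, 42 in the authors' values, 35, 31 and 36 with plain subtraction and no, spike control or median scaling, and 14 and 0 at 1.5-fold and 4-fold. Called lower (16) were 36, then 32, 33 and 32 for the 3 combined settings, and 26 and 2 at 1.5-fold and 4-fold. Called higher on W4-08-PR over C2C12-PR (3) were 8, 12 and 11 with median, no and spike control scaling, 23 with plain subtraction, 11 with an offset of 10, 161 in the authors' values, 57, 50 and 17 for the combined settings and 16 at 1.5-fold. Called lower (9) were 16 with 75th percentile scaling, 31 with plain subtraction, 1 in the authors' values, 18, 22 and 44 for the combined settings, and 18 and 1 at 1.5-fold and 4-fold. Called higher on W4-08-PR over C2C12-DF (6) were 13 with no scaling, 30 with plain subtraction, 14 with an offset of 10, 104 in the authors' values, 60, 53 and 21 for the combined settings, and 18 and 3 at 1.5-fold and 4-fold. Called lower (6) were 26 with plain subtraction, 10 with an offset of 10, 1 in the authors' values, 14, 16 and 49 for the combined settings, and 21 and 0 at 1.5-fold and 4-fold.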
